A study of Mus musculus with 41 samples.

Results

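The comparison concerned trimethylation of lysine 4 of histone H3 (H3K4me3) in mouse gastrocnemius muscle (GAS) and in post-ischemia macrophages sorted from muscle (PIM). All H3K4me3 peaks of GAS and PIM on chromosomes 1 to 19 were merged, which gave 36448 regions. Each region was classed as GAS-only, PIM-only or shared, where an overlap of 1 bp counted as shared. A region was called promoter if it reached within 2000 bp of an annotated transcription start site (TSS), and distal otherwise. The members come from 2 of the 24 peak lists and 4 of the 41 samples of the series, whose lists hold 545737 peaks together.

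The study profiled histone post-translational modifications (hPTMs) in mouse cells and tissues by CUT&Tag, where a transposase tethered to an antibody inserts sequencing adapters next to the modified histone. Both groups came from C57BL/6 mice, given in the study's methods as C57Bl6/J females aged 8 to 12 weeks, and the labels name no genetic modification and give the treatment of both as control. GAS was snap-frozen whole muscle that was sliced and dounced to nuclei. PIM were CD45+CD11b+F4/80+CD64+ cells sorted from the calf muscle of a limb whose femoral artery had been ligated 2 days before, and were also profiled as nuclei with the same H3K4me3 antibody. Each group has 2 biological replicates that the authors pooled before calling peaks. There was therefore 1 peak list per group and no spread between replicates, so no difference given here was tested, and the intervals cover counting error only. Tissue against sorted cells and resting against ischemic limb differ together between the groups, and cannot be told apart.

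H3K4me3 is laid down by the SET1 and MLL (KMT2) methyltransferase complexes and removed by KDM5 demethylases. It sits around the start sites of active genes, most of all at promoters rich in CpG dinucleotides, and at poised genes together with the Polycomb mark H3K27me3. Broad H3K4me3 domains that run into the gene body are known to mark genes central to the identity of a cell type. Muscle fibres devote their chromatin to contraction, excitation and fuel use, while macrophages take up debris, sense microbes and damage, and signal to other cells. GAS is a bulk tissue with vessels, connective tissue, nerve and resident immune cells beside its fibres, so fewer cells with the mark and less mark per cell cannot be told apart in it.

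The promoters below illustrate the classes, with the sequence from 200 bases before to 30 bases after the start in RefSeq on GRCm38.p6, the assembly also called mm10. Acta1 encodes skeletal alpha-actin, Ckm muscle creatine kinase, Myog the myogenic factor myogenin, Mylpf the fast regulatory myosin light chain and Myoz2 a Z-disc protein. Cd68 encodes a lysosomal protein of macrophages, Clec4e the receptor Mincle, Fcgr4 an activating Fc receptor and Tlr1 a Toll-like receptor. Acta1, Myog and Myoz2 had a peak in GAS alone, Cd68, Clec4e, Fcgr4 and Tlr1 in PIM alone, and Ckm and Mylpf in both lists. Myoz2, Fcgr4 and Tlr1 were chosen after their motif matches were seen. Capitals mark matches, on either strand, to 6 motifs. These were TATAAA (the TATA box), CAGCTG (an E-box bound by myogenic factors), CTANNNNTAG (a loose MEF2 pattern), GAGGAAGT (bound by PU.1, the product of Spi1), TGANTCA (bound by AP-1) and CCAAT. In the MEF2 pattern any base was allowed at N, while MEF2 binds forms with only A and T there. In Cd68 an AP-1 match and an E-box match overlap, and in Tlr1 a pair of CCAAT matches do.
Acta1: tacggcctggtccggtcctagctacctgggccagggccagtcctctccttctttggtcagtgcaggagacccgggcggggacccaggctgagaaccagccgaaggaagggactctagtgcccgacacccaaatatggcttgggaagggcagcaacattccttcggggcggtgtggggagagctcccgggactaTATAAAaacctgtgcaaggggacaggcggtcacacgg
Myog: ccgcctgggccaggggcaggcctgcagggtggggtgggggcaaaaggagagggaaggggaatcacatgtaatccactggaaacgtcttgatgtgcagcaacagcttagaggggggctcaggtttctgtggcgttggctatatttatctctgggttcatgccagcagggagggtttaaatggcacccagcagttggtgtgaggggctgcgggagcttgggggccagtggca
Myoz2: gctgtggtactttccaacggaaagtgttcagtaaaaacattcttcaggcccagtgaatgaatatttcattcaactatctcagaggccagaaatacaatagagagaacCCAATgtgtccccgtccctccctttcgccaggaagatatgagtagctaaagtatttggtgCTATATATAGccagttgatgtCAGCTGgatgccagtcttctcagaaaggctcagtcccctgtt
Mylpf: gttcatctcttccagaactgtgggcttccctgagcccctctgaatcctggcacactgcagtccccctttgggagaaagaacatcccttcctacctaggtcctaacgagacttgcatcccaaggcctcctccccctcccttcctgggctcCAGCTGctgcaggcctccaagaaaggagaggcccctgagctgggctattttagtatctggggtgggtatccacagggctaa
Ckm: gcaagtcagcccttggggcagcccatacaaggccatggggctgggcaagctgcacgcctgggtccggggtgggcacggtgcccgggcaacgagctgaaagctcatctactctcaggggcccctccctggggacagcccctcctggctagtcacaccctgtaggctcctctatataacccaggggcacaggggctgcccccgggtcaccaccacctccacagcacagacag
Cd68: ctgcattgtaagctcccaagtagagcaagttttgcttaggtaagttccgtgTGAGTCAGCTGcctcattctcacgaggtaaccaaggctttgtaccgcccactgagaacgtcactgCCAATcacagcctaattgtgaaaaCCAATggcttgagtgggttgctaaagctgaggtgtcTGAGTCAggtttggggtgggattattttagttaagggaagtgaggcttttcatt
Clec4e: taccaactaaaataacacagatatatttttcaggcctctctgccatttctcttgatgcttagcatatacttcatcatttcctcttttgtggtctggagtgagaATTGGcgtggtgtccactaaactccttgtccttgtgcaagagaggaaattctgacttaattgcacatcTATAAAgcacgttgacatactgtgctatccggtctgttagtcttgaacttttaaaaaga
Fcgr4: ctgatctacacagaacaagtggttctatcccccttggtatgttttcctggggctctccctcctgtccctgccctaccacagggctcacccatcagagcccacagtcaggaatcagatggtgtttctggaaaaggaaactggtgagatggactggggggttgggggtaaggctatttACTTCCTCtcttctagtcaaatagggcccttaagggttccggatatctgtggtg
Tlr1: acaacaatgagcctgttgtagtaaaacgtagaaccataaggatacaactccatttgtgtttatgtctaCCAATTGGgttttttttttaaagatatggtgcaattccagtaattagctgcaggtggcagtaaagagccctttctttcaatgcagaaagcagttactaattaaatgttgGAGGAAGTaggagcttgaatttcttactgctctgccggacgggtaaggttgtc
The windows lie at chr8:123894746-123894975 (minus strand) for Acta1, chr1:134289804-134290033 (plus strand) for Myog, chr3:123034958-123035187 (minus strand) for Myoz2, chr7:127211408-127211637 (plus strand) for Mylpf and chr7:19410894-19411123 (plus strand) for Ckm. Those of the macrophage genes lie at chr11:69666141-69666370 (minus strand) for Cd68, chr6:123289842-123290071 (minus strand) for Clec4e, chr1:171018726-171018955 (plus strand) for Fcgr4 and chr5:64933529-64933758 (minus strand) for Tlr1. The Myoz2 promoter held a MEF2 match that begins 33 bases and an E-box that begins 12 bases before the start. Fcgr4 and Tlr1 each held a PU.1 match, which begins 24 and 23 bases before the start. A second RefSeq start of Tlr1, whose window (chr5:64932670-64932899) is not printed, held none of the 6 motifs. None of the 6 motifs matched in the printed windows of Ckm and Myog.

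The GAS list held 27814 peaks on chromosomes 1 to 19 that covered 51.1 Mb, and the PIM list 24861 peaks that covered 63.7 Mb. The median peak was 1480 bp wide in GAS and 2131 bp in PIM. The lists give no number of sequenced reads. The coverage within peaks was higher in PIM, with a median over peaks of 39.8 fragments per base against 17.5 in GAS, and was not scaled for depth, so signal is given only as a rank within a list. In GAS, 10 peaks with a maximum over 100 times the list's median held 24.4% of the total signal, and in PIM 9 such peaks held 7.80%. Promoters held 62.6% of the peaks in both lists.

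Most promoters that carried H3K4me3 in either list carried it in both, while distal H3K4me3 was largely separate. Of 19368 promoter regions, 12204 (63.0%, 95% Wilson interval 62.3 to 63.7%) were shared, 4540 (23.4%) were GAS-only and 2624 (13.5%) were PIM-only. Of 17080 distal regions, 2105 (12.3%, 11.8 to 12.8%) were shared, 7889 (46.2%) were GAS-only and 7086 (41.5%) were PIM-only. With only the 5000 strongest peaks of each list, the shared promoter share was 43.8%, so that shared promoters were no longer the majority. Seen from the other side, 85.3% of shared regions lay at promoters, against 36.5% of GAS-only and a still smaller share of PIM-only regions. Counted in bases, the lists had 30.5 Mb in common of 84.3 Mb in either, which is 59.7% of the GAS bases and 48.0% of the PIM bases.

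**Figure D1:**
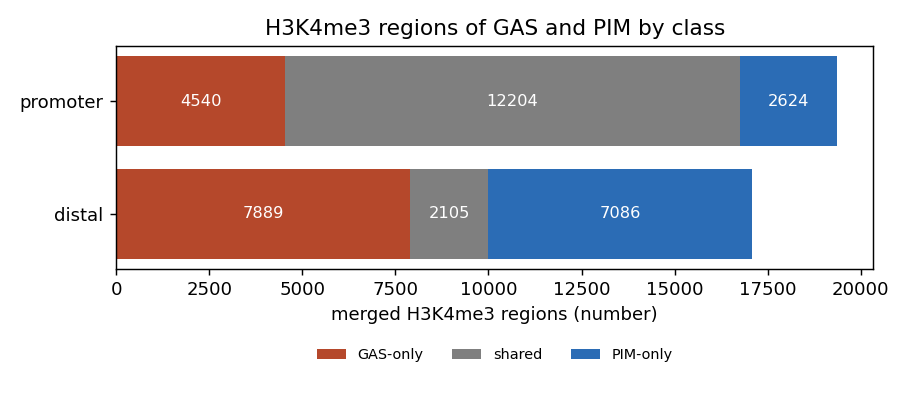
Number of merged H3K4me3 regions (horizontal axis) at promoters and distal sites (rows), coloured by class. The shared class holds 12204 of 19368 promoter regions and 2105 of 17080 distal regions.

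Sharing followed the strength of a peak within its own list. Among the tenth of GAS peaks with the lowest total signal 14.3% met a PIM peak, and in the tenth with the highest 91.0% did. In PIM the corresponding shares were 26.5% and 93.0%. Promoter peaks that were not shared had a median signal percentile of 37.6 in GAS and 33.4 in PIM, against 73.8 and 69.5 for those that were. Few regions lay at the edge of the 1-bp rule. There were 15 shared regions with under 100 bp in common, and 85 GAS-only and 39 PIM-only regions had a peak of the other list within 100 bp.

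The shared promoters were wider in the macrophages. At the 12204 shared promoter regions the median width was 2334.5 bp in GAS (quartiles 1707 and 3152 bp) and 2790 bp in PIM (2022 and 3831 bp). The median log2 ratio of PIM over GAS width was 0.25 (95% order-statistic interval 0.24 to 0.26), and 8396 regions (68.8%) were wider in PIM. At least 2 times the width of GAS was reached in PIM at 1398 regions (11.5%), and the reverse at 399 (3.27%). Where each list had 1 peak, the median log2 ratio lay between 0.30 for the class of narrowest regions, under 1000 bp, and 0.20 for the class of widest regions. At the 2105 shared distal regions it was 0.49 (0.45 to 0.52). For 889 genes with 1 annotated TSS and 1 peak over it in each list, the peak reached a median of 974 bp upstream and 1349 bp downstream in GAS, and 1192 and 1626 bp in PIM. Coverage within peaks was also higher in PIM, as given above, and its part in the width difference was not tested. The ratios of single genes and gene lists below stand against this general shift.

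Among 20807 protein-coding genes, 11794 (56.7%) had a promoter peak in both lists, 1715 (8.24%) in GAS only, 732 (3.52%) in PIM only and 6566 (31.6%) in neither. The width of a gene is that of its widest promoter peak in the list. Genes called in both had median widths of 2467 bp in GAS and 2916 bp in PIM, with a median log2 ratio of 0.24. GAS-only genes had a median of 1763 bp and PIM-only genes of 2647.5 bp. The gene lists below are read against these shares of all genes.

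**Figure D2:**
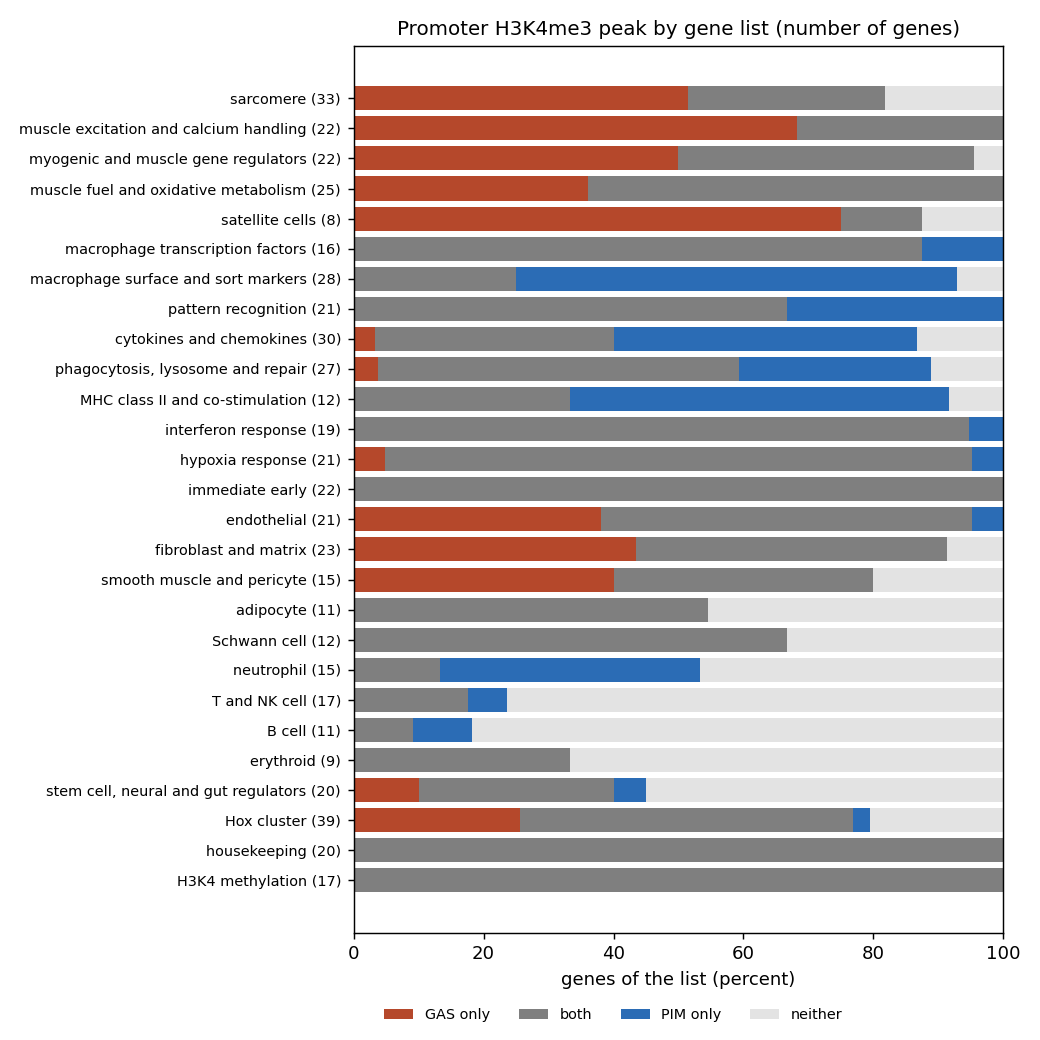
Share of the members of each gene list (horizontal axis, percent) with an H3K4me3 promoter peak in both lists, in GAS only, in PIM only or in neither, with the number of genes in parentheses. The sarcomere and excitation lists hold 17 and 15 GAS-only genes and no PIM-only gene, and the macrophage surface list holds 19 PIM-only genes of 28 and no GAS-only gene.

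The sarcomere genes, which build the contractile filaments and the Z-disc, were called mostly in the muscle alone. Of 33 genes, 17 were called in GAS only, 10 in both, none in PIM only and 6 in neither. The widest GAS peak of the list covered 13620 bp at Myl1, a fast essential myosin light chain (chr1:66932419-66946038), which had no PIM peak. Tpm1, a tropomyosin, had 11336 bp in GAS and 3455 bp in PIM. Tnnt3, the fast troponin T, had 10700 bp in GAS and none in PIM (chr7:142492206-142502905). Myom1, an M-band protein, had 9210 bp in GAS and 4104 bp in PIM. Ttn, which encodes the giant elastic protein titin, had 8284 bp in GAS alone (chr2:76976789-76985072). Among the 10 genes called in both the median log2 ratio was -1.61, and 8 were at least 2 times wider in GAS. Tpm3, a tropomyosin that is also made outside muscle, went the other way, with 1798 bp in GAS (chr3:90079019-90080816) and 7322 bp in PIM (chr3:90078751-90086072). Acta1 had 6400 bp in GAS alone (chr8:123891760-123898159).

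Within the sarcomere list, chosen fast-fibre isoforms were called more often than chosen slow-fibre ones. The grouping was made after the values were seen. Of 10 fast isoforms (Actn3, Mybpc2, Myh1, Myh2, Myh4, Myl1, Mylpf, Tnnc2, Tnni2 and Tnnt3) 8 had a GAS peak, from 5160 to 13620 bp wide. The other two were Myh1 and Myh2, which encode other fast myosin heavy chains. Myh4, the heavy chain of the fastest fibres, had 6690 bp in GAS and no PIM peak. Of 6 slow isoforms (Myh7, Myl2, Myl3, Tnnc1, Tnni1 and Tnnt1) 2 had a GAS peak, with widths of 1592 and 3590 bp. Mybpc1, Myoz2 and Tpm3 of the same list, also known from slow fibres, were not in the slow set and had a GAS peak. The contrast thus depends on the genes grouped. The PIM peak of 3278 bp counted for Tnnc1 also lay at the start of its neighbour Nisch.

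Every gene of excitation and calcium handling was called in the full GAS list. Of 22 genes, 15 were called in GAS only and 7 in both. When each list was cut to its 5000 strongest peaks, 13 were called in GAS only, 1 in both and 8 in neither. Atp2a1, the calcium pump of the fast sarcoplasmic reticulum, had 12032 bp in GAS (chr7:126454492-126466523) and no PIM peak. Hrc, a calcium-binding protein of the same store, had 8718 bp in GAS, and Jph1, which holds the store against the surface membrane, had 7335 bp. Their PIM peaks, of 2014 and 1397 bp, did not cover an annotated start of the gene. Trdn (triadin) had 7254 bp and Jph2 7077 bp, both in GAS alone. The 7 genes called in both had a median log2 ratio of -1.35.

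The regulators of muscle genes divided into a group seen in GAS alone and a group with wide peaks in both lists. Of 22 genes, 11 were called in GAS only and 10 in both, and Ankrd1, a stretch-induced repeat protein, was called in neither. Mef2d, a MADS-box factor, had 9885 bp in GAS and 5335 bp in PIM, and Eya1, a transcriptional coactivator, had 9399 and 4734 bp. Lbx1, a homeobox factor of migrating muscle precursors, and Eya4 had 9129 and 6152 bp in GAS alone. Myod1 (chr7:46374131-46378558), the factor that can turn other cells into muscle, had 4428 bp, and Myog had 2027 bp, both in GAS alone. The median log2 ratio of the 10 genes called in both was 0.00, and Nfix, a nuclear factor I of the fetal muscle program, was wider in PIM with 3811 bp in GAS and 12413 bp in PIM.

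The genes of muscle fuel use were all called in the full GAS list. Of 25 genes, 16 were called in both and 9 in GAS only, and the median log2 ratio in both was -0.51. Among the 5000 strongest peaks of each list, 7 were called in both, 12 in GAS only, 2 in PIM only and 4 in neither. Pfkm, the muscle phosphofructokinase, had 9855 bp in GAS and 2434 bp in PIM. Eno3, the muscle enolase, had 9570 and 11372 bp, and its PIM peak did not cover its start but lay also at Pfn1, Rnf167 and Slc25a11. Pygm, muscle glycogen phosphorylase, had 7149 and 853 bp, and its PIM peak did not cover its start. Ckm had 6874 and 1556 bp, with a PIM peak that did not cover its start and lay also at Klc3. Slc25a4, the ATP exchanger of the mitochondrial membrane, had 6782 and 2485 bp. Satellite cell genes, whose cells are the stem cells of muscle, were called in GAS only for 6 of 8, among them Pax7 with 2932 bp. With only the 5000 strongest peaks of each list, 0 of the 8 were GAS only and 7 were called in neither.

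Over the 4 lists of contraction, excitation, regulation and fuel, 95 of 102 genes had a GAS peak and 43 a PIM peak. All 43 with a PIM peak were also called in GAS. When each list was cut to its 5000 strongest peaks, fewer had a PIM peak, and 1 regulator and 2 fuel genes were called in PIM only. At 9 of them the PIM peak did not cover a start of the gene, and at 14 it also lay at another gene. The median width of the 43 was 5737 bp in GAS and 3268 bp in PIM, and their median signal percentile 98.2 within GAS and 67.6 within PIM. All shared promoter peaks had a median percentile of 73.8 in GAS and 69.5 in PIM. Thus the GAS peaks at these genes were among the strongest, while their PIM peaks ranked near other shared promoter peaks.

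The surface and sort markers of macrophages showed the reverse of the muscle lists. Of 28 genes, 19 were called in PIM only, 7 in both, none in GAS only and 2 in neither. The genes behind the sort were all called in PIM only. Ptprc (CD45) had 5258 bp (chr1:138171254-138176511), Itgam (CD11b) 6283 bp (chr7:128062014-128068296), Adgre1 (F4/80) 4608 bp (chr17:57357803-57362410) and Fcgr1 (CD64) 5884 bp (chr3:96289055-96294938). The PIM list thus carried the mark at the genes of its label, and those genes were not called in the tissue.

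The widest PIM peaks of the surface list lay at Tyrobp, Cd68, Lyz2, Laptm5 and Sirpa. Tyrobp, the adaptor DAP12 of activating receptors, had 1155 bp in GAS and 12821 bp in PIM (chr7:30411805-30424625). Cd68 had 12255 bp (chr11:69661450-69673704) and Lyz2, lysozyme, 12041 bp (chr10:117277382-117289422), both in PIM only. Laptm5, a lysosomal membrane protein of blood cells, had 636 bp in GAS (chr4:130915135-130915770) and 11014 bp in PIM (chr4:130911588-130922601). Sirpa, the receptor of the signal that spares cells from being eaten, had 3128 and 9684 bp. Csf1r, the receptor of the growth factor macrophages need, had 5692 bp in PIM only. Ccr2, the receptor of recruited monocytes, had 7811 bp and Cx3cr1 7073 bp, both in PIM only. Lyve1 and Timd4, which mark resident macrophages, were called in neither list. Mrc1, Cd163 and Folr2, also known from resident macrophages, were called in PIM. The 7 genes called in both were all wider in PIM, with a median log2 ratio of 1.51.

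The transcription factors of macrophages were called in the tissue too, and differed in width. Of 16 factors, 14 were called in both and 2, Tfec (3410 bp) and Batf (2328 bp), in PIM only. Among the 5000 strongest peaks of each list, 9 were called in both and 7 in PIM only. Irf8, which directs the monocyte line, had 1775 bp in GAS (chr8:120735449-120737223) and 11585 bp in PIM (chr8:120734190-120745774). Irf5, a factor of inflammatory macrophages, had 3649 and 9871 bp. Spi1, which encodes PU.1, had 8690 bp in PIM (chr2:91080061-91088750), and its GAS peak of 1817 bp did not cover a start of the gene. Runx1 had 5692 and 8252 bp. The median log2 ratio of the 14 was 0.74, with 6 at least 2 times wider in PIM, and Maf was wider in GAS with 8456 against 4728 bp.

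The genes of innate sensing were all called in PIM. Of 21 annotated genes, 14 were called in both and 7 in PIM only, so that the number called in GAS was near the 64.9% of all genes. With only the 5000 strongest peaks of each list, 13 were called in PIM only, 4 in both, 1 in GAS only and 3 in neither. Clec4d, a C-type lectin receptor of the Mincle family, had 10002 bp in PIM only. Tlr2 had 2213 bp in GAS and 8030 bp in PIM, Myd88, the adaptor of most Toll-like receptors, 4575 and 7900 bp, and Tlr4, the receptor of bacterial lipopolysaccharide, 3511 and 6161 bp. Tlr9, the sensor of microbial DNA, had 6283 bp in PIM only. Clec4e had 4997 bp (chr6:123286062-123291058) in PIM only. The median log2 ratio of the 14 was 1.40, and 9 were at least 2 times wider in PIM.

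Cytokine and chemokine genes fell in all 4 classes. Of 30 genes, 14 were called in PIM only, 11 in both, 1 in GAS only and 4 in neither. Among the 5000 strongest peaks of each list these counts were 8, 2, 1 and 19. Vegfa, which drives vessel growth, had 7074 bp in GAS and 3719 bp in PIM. Ccl2, which recruits monocytes, had 5586 bp in PIM only, and Ccl9 had 698 and 5568 bp. Igf1, a growth factor for muscle, had 5299 and 5233 bp, and Il10, an anti-inflammatory cytokine, 5027 bp in PIM only. Tgfb1 had 4173 and 4854 bp. Cxcl9, an interferon-induced chemokine, was the GAS-only gene, with a peak of 637 bp (chr5:92327957-92328593). Ccl5, Ccl22, Ccl24 and Il1a were called in neither.

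The widest macrophage peaks of all the lists of this cell type lay at lysosomal proteases. In the list of phagocytosis, lysosome and repair, 15 of 27 genes were called in both, 8 in PIM only, 1 in GAS only and 3 in neither. When each list was cut to its 5000 strongest peaks, 4 were called in both, 15 in PIM only, 2 in GAS only and 6 in neither. Ctsb (cathepsin B) had 4066 bp in GAS (chr14:63121458-63125523) and 14997 bp in PIM (chr14:63120246-63135242), and Ctsd (cathepsin D) 4366 and 14830 bp. Stab1, a scavenger receptor, had 1204 and 12333 bp, and Msr1, another, 10595 bp in PIM only. C1qa and C1qc, which encode complement C1q chains, lay under the same PIM peak of 9433 bp. Axl, a receptor for dying cells, was the GAS-only gene with 2295 bp (chr7:25787207-25789501). Chil3, Retnla and Marco were called in neither list. The median log2 ratio of the 15 genes in both was 1.53.

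Antigen presentation genes were called in PIM for 11 of 12 and in GAS for 4. H2-DMa, which loads peptide onto MHC class II, had 10370 bp in GAS and 9116 bp in PIM. Cd80 (5976 bp) and Cd86 (4203 bp), which co-stimulate T cells, and Cd74 (5114 bp), the invariant chain, were called in PIM only. Ciita, the master activator of these genes, had 3720 bp in PIM only, and H2-Oa was called in neither. Interferon response genes were called in both for 18 of 19, with a median log2 ratio of 0.64 and 17 wider in PIM, and Mx1, an antiviral GTPase, had 6245 bp in PIM only. The interferon genes called in PIM only numbered 8 with only the 5000 strongest peaks of each list, and those of antigen presentation 2, against 7 in the full lists. Irf9, a subunit of the interferon-activated complex, had 1550 and 5474 bp, and Ifit2 went the other way with 4860 and 1784 bp.

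Over the 5 lists of factors, surface, sensing, cytokines and phagocytosis that make up the macrophage set, 60 of 121 genes were called in both, 50 in PIM only and 2 in GAS only. Among the 60 the median width was 2226.5 bp in GAS and 4974 bp in PIM, and 48 were wider in PIM. Their median signal percentile was 72.5 within GAS and 89.7 within PIM, against 73.8 and 69.5 for all shared promoter peaks. At 58 of the 60 the GAS peak covered a start of the gene. Counted together, the genes of the set were called in GAS somewhat less often than the 64.9% of all protein-coding genes.

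**Figure D3:**
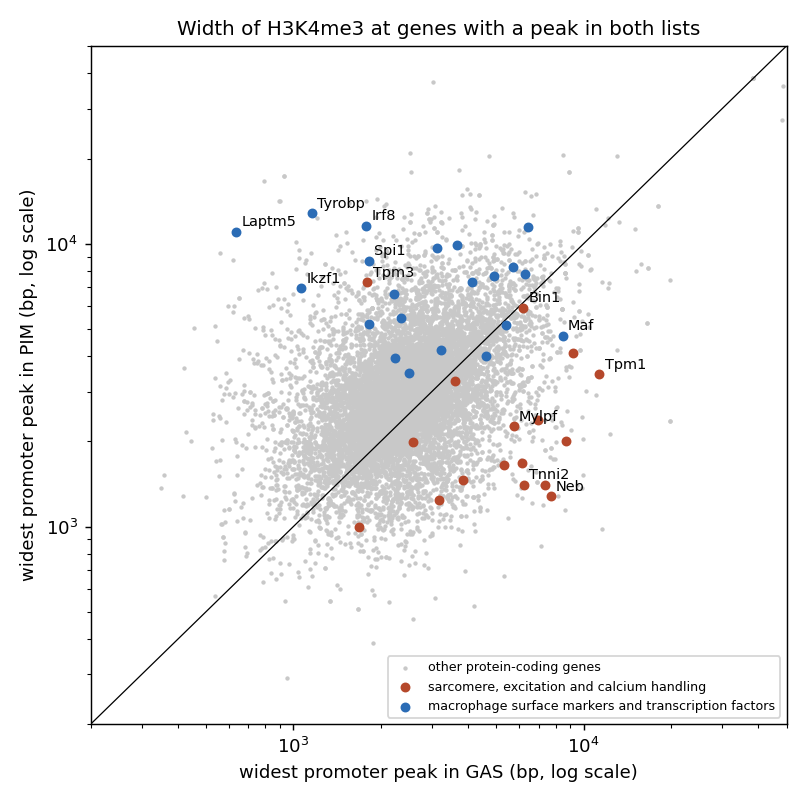
Width of the widest H3K4me3 promoter peak in GAS (horizontal axis) and PIM (vertical axis), both in bp on log scales, with 1 point per gene called in both lists and the line of equal width. Sarcomere and excitation genes such as Tpm1 (11336 bp in GAS and 3455 bp in PIM) lie mostly below the line, and macrophage surface genes and factors such as Laptm5 (636 and 11014 bp) mostly above it.

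Nearly all genes of stress and of general upkeep were called in both of the full lists. The 22 immediate early genes, which respond to stimuli within minutes, were all called in both, with a median log2 ratio of 0.35. Zfp36, which destabilises cytokine mRNA, had 8886 bp in GAS and 17928 bp in PIM, Junb 5251 and 13380 bp and Klf6 6697 and 12610 bp. Nr4a1, an orphan nuclear receptor, and Jund were wider in GAS, with 9719 against 4779 bp and 5834 against 2442 bp. Hypoxia response genes were called in both for 19 of 21, with a median log2 ratio of 0.05. P4ha2, a collagen prolyl hydroxylase, was called in GAS only (2640 bp) and Car9, a carbonic anhydrase, in PIM only (2743 bp). The 20 housekeeping genes were all in both with a ratio of 0.25, close to the 0.24 of all genes. The 17 writers and erasers of H3K4 methylation were all in both with a ratio of -0.11. These calls depended on the threshold. When each list was cut to its 5000 strongest peaks, the genes in both numbered 18 of the immediate early, 8 of the hypoxia, 12 of the housekeeping and 7 of the H3K4 methylation genes.

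The markers of other cell types of muscle differed in how they fell between the lists. Of 21 endothelial genes, 8 were called in GAS only, 12 in both and 1, Vwf, in PIM only with 2276 bp. Among the 5000 strongest peaks of each list, 4 were in GAS only, 1 in both, 2 in PIM only and 14 in neither. Egfl7 (7278 bp) and the angiopoietin receptor Tek (4153 bp) were in GAS only, and Erg, an endothelial factor, was wider in PIM with 2096 against 8372 bp. Of 23 fibroblast and matrix genes, 10 were called in GAS only and 11 in both, with the matrix proteoglycan Dcn at 5841 bp and the fibrillar collagens Col5a1 at 5404 bp and Col3a1 at 4106 bp in GAS only. Of 15 genes of smooth muscle and pericytes 6 were in GAS only and 6 in both. The GAS-only counts moved from 2 to 15 for fibroblast genes and from 2 to 10 for smooth muscle genes over the settings tried. Adipocyte genes were called in both for 6 of 11 and Schwann cell genes for 8 of 12, with none in a single list, which lies near the 56.7% of all genes called in both. The part of these cells in the GAS-only class was not tested.

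Markers of other white cells than macrophages were few in both lists, with neutrophil genes present in PIM. Of 15 neutrophil genes, 6 were called in PIM only, 2 in both and 7 in neither. The PIM-only genes were S100a8 (1751 bp), Csf3r (4286 bp), Mpo (2352 bp), Mmp8 (2944 bp), Mmp9 (4399 bp) and Prtn3 (4218 bp), while the defining genes Ly6g, S100a9 and Cxcr2 were called in neither. T and NK cell genes were called in neither list for 13 of 17, B cell genes for 9 of 11 and erythroid genes for 6 of 9. The sort required F4/80, and the purity of the sorted cells was not analysed here. With only the 5000 strongest peaks of each list, 1 neutrophil gene was called in PIM only and 14 in neither. The part of such cells in the PIM list was not tested.

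Hox genes were called more often in the muscle. Of 39 Hox genes, which lay down position along the body axis, 20 were called in both, 10 in GAS only, 1 in PIM only and 8 in neither. Among the 5000 strongest peaks of each list, 0 were in both, 9 in GAS only, 1 in PIM only and 29 in neither. With equal covered bases 12 were in both and 18 in GAS only. Hoxa7, Hoxa9 and Hoxa10 lay under the same GAS peak of 19840 bp, Hoxc11 had 16540 bp in GAS only and Hoxd12 8746 bp in PIM only. H3K27me3 peaks overlapped the promoters of 30 Hox genes in GAS and 38 in PIM, against 4926 and 5610 of all 20807 genes. Of 20 regulators of stem cells, nerve and gut, 11 were called in neither list, 6 in both, 2 in GAS only and 1 in PIM only. Pax6, an eye and nerve factor, had 4729 bp in GAS and 20482 bp in PIM, and Neurod1 4380 bp in PIM only.

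The widest GAS-only promoter peaks over all protein-coding genes were at Hoxc11 (16540 bp), Nfib (16252 bp), Myl1 (13620 bp), Nmrk2 (12362 bp), Atp2a1 (12032 bp), Tnnt3 (10700 bp), Mylk2 (10153 bp) and Mn1 (10140 bp), and at 1110002E22Rik and Gm5105, which shared a peak of 10085 bp. Nmrk2 encodes a nicotinamide riboside kinase of muscle and Mylk2 the skeletal myosin light chain kinase. All 10 genes also had H3K27ac and H3K18la peaks in GAS, which 38.8% and 44.9% of all GAS-only genes had. The widest PIM-only peaks were at Tspoap1 (17528 bp), Cd68 (12255 bp), Lyz2 (12041 bp), Tnfrsf11a (11583 bp), Cass4 (11574 bp), Myo1f (11002 bp), Msr1 (10595 bp) and Gpr35 (10441 bp), and at Bcl2a1b and Gm29094, which shared a peak of 11130 bp. Tnfrsf11a encodes RANK, the receptor that drives osteoclast formation, and Myo1f a class I myosin of white cells. The peak at Tspoap1 (chr11:87747949-87765476), which also holds the start of Mir142, was the widest of all the PIM-only genes. All 10 genes also had H3K27ac and H3K18la peaks in PIM, which 52.3% and 67.2% of all PIM-only genes had.

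Some shared promoter regions differed in width so strongly that 1 list held only a small peak. The region at Tnfrsf11a had 388 bp in GAS and 11583 bp in PIM, a log2 ratio of 4.90. The gene is PIM-only nonetheless, since the small GAS peak lay over 2000 bp from its start. Next came the region at Adam8, a sheddase of white cells, with 930 and 17363 bp (4.22), Laptm5 (4.11), Plaur, the urokinase receptor, with 559 and 9259 bp (4.05), Hoxd12 and Hoxd13 with 620 and 8746 bp (3.82), Ptpre with 777 and 10116 bp (3.70) and Dok2 with 457 and 5858 bp (3.68). The GAS peak of the Hoxd12 and Hoxd13 region lay outside the window of Hoxd12, which is therefore a PIM-only gene. A region with no protein-coding start within 2000 bp, 4462 bp from Cfap45, had 277 and 4951 bp (4.16). In the other direction the largest ratios were smaller. They were at Tmem88b with 4197 bp in GAS and 524 bp in PIM (-3.00), Arhgef17 with 8605 and 1142 bp (-2.91), Usp2 with 7438 and 1017 bp (-2.87) and Cavin1, a coat protein of caveolae, with 9846 and 1367 bp (-2.85). These were followed by a region 50362 bp from Spag9 (-2.79), the region of Dapk3 and Nmrk2 (-2.72), whose PIM peak lay outside the window of Nmrk2, Tns2 with 8182 and 1283 bp (-2.67) and Id3, an inhibitor of helix-loop-helix factors, with 2681 and 426 bp (-2.65).

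Genes of miRNAs were called less often than protein-coding genes, and those named here were chosen after their values were seen. Of 2054 annotated miRNA genes, 302 (14.7%) had an H3K4me3 peak within 2000 bp in both lists, 105 (5.11%) in GAS only and 74 (3.60%) in PIM only. Mir1a-1, Mir1a-2, Mir133a-1 and Mir486, which are abundant in muscle, Mir126a of the endothelium, and Mir124a-1, Mir124a-2 and Mir137, which are known from neurons, were in GAS only, while Mir124a-3 was called in both. Mir142 of blood cells and Mir146b were in PIM only, and Mir21a, Mir22 and Mir150 in both. The muscle miRNA genes Mir206, Mir133b, Mir133a-2, Mir499 and Mir208b, and Mir155 of immune cells, were called in neither. The annotated start of a miRNA gene is that of its hairpin, which can lie far from the start of the primary transcript. A miRNA gene called in neither list is thus not shown to lack a marked promoter, and the lower shares may not compare with protein-coding genes. Of 9421 long non-coding genes, 2075 (22.0%) were called in both, 614 (6.52%) in GAS only and 525 (5.57%) in PIM only.

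The distal regions lay at similar distances from genes in all 3 classes. The median distance to the nearest start was 19715 bp for GAS-only, 19151.5 bp for PIM-only and 17400 bp for shared regions, and 58.5%, 55.0% and 46.2% overlapped an annotated transcript. The GAS-only distal region of largest total signal spanned 9743 bp in an intron of Lncppara (chr15:85671670-85681412), 53571 bp from Ppara, a regulator of fat use. The next lay in an intron of Nfib (chr4:82536483-82543316), between genes at a narrow peak of 439 bp (chr17:4626160-4626598), in an intron of Nedd4l (chr18:65082900-65087411) and in an intron at Fgfr2 and Nsmce4a (chr7:130552148-130556697). The narrow peak also overlapped both a GAS H3K27me3 and a GAS H3K18la peak, and whether it is an artefact of mapping was not tested. The PIM-only distal region of largest signal spanned 12946 bp between genes (chr17:84115757-84128702), 59245 bp from Zfp36l2, an mRNA-destabilising factor. The next lay in an intron of Fnip2 (chr3:79527349-79533772) and between genes near Wdr26 (chr1:181230473-181235550), Gm11232 (chr4:71288839-71296514) and Olfr693 (chr7:106640554-106646715).

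The other hPTM lists of the same tissues mostly followed the classes, with lactylation (H3K18la) and acetylation (H3K27ac) as marks of active chromatin. Among GAS-only promoter regions 41.9% overlapped a GAS H3K27ac peak and 3.50% a PIM one, and 44.6% overlapped a GAS H3K18la peak and 4.60% a PIM one. Among PIM-only promoter regions 55.1% overlapped a PIM H3K27ac peak and 25.5% a GAS one, and 72.2% a PIM H3K18la peak and 25.8% a GAS one. These lists differ in extent and in samples, which bears on any overlap. The H3K27ac peaks covered 196.4 Mb in GAS (2 samples) and 26.97 Mb in PIM (1 sample), and the H3K18la peaks 122 Mb in GAS and 68.0 Mb in PIM (2 samples each). The BMDM and MB H3K18la lists came from 1 sample each. Macrophages grown from bone marrow (BMDM), a separate culture, had H3K18la at 45.8% of PIM-only and 1.48% of GAS-only promoter regions. Myotubes (MT), muscle cells fused in culture, had H3K18la at 23.9% of PIM-only and 26.5% of GAS-only promoter regions, and at 31.1% and 27.8% of the distal regions. Their unfused precursors, myoblasts (MB), had H3K18la at 12.5% of PIM-only and 8.04% of GAS-only promoter regions, and at 16.2% and 8.89% of the distal regions. Counted at the promoters of genes instead, MT H3K18la was at 34.6% of GAS-only and 19.5% of PIM-only genes, and MB H3K18la at 13.2% and 9.02%. At distal regions PIM H3K18la overlapped 78.5% of PIM-only and 7.05% of GAS-only regions, and GAS H3K18la overlapped 49.1% of GAS-only and 29.9% of PIM-only ones. Shared promoter regions overlapped H3K27ac in 67.5% of cases in GAS and 77.7% in PIM.

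**Figure D4:**
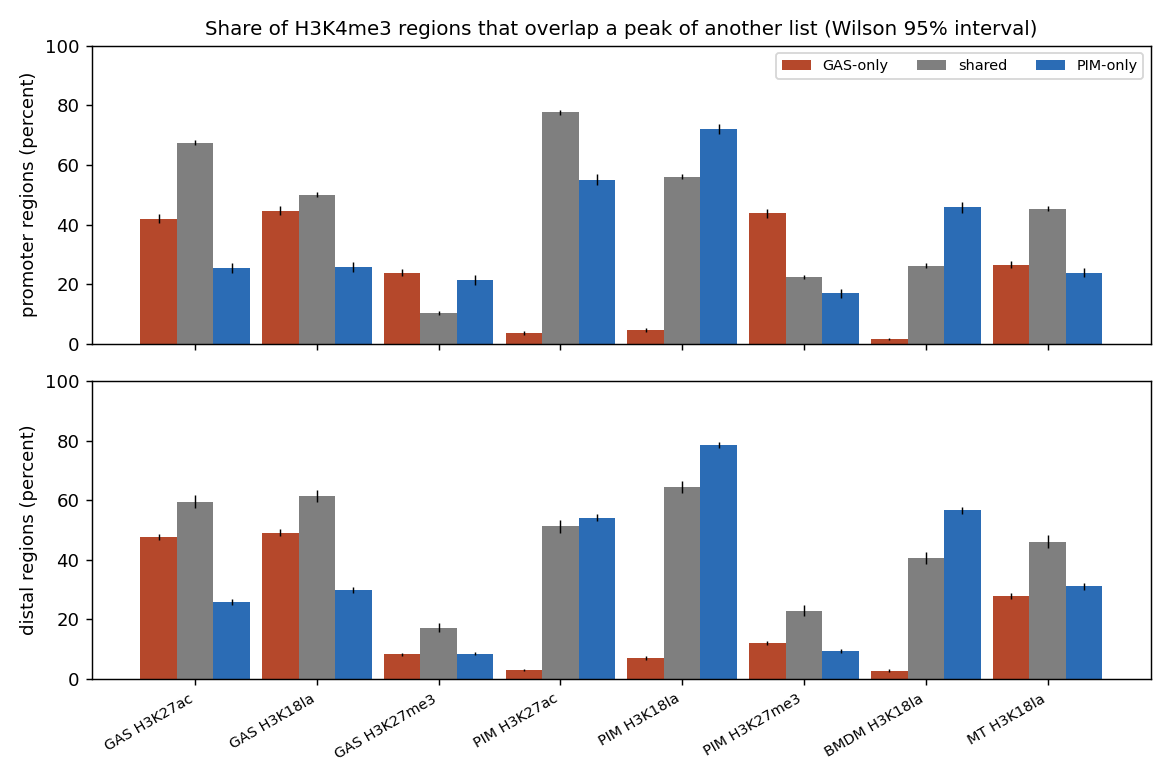
Share of GAS-only, PIM-only and shared H3K4me3 regions (bars, percent) that overlap a peak of each other hPTM list, for promoter and distal regions, with 95% Wilson intervals as lines. PIM H3K18la meets 72.2% of PIM-only and 4.60% of GAS-only promoter regions.

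H3K27me3 of the other tissue was met at single-list promoters, and more often counted by gene than by region. By region, PIM H3K27me3 overlapped 43.8% of GAS-only promoter regions and GAS H3K27me3 21.3% of PIM-only ones. GAS H3K27me3 also overlapped 23.8% of GAS-only and 10.3% of shared promoter regions, and PIM H3K27me3 16.8% of PIM-only and 22.3% of shared ones. Counted by gene, over the whole promoter window, the shares were higher. Among GAS-only genes 69.4% (67.2 to 71.5%) had a PIM H3K27me3 peak at the promoter, and among PIM-only genes 51.0% (47.3 to 54.6%) had a GAS one. Among genes called in both the shares were 24.2% in PIM and 13.8% in GAS, and among genes in neither 20.4% in PIM and 31.7% in GAS. The GAS-only genes also carried H3K27me3 in GAS itself for 49.3%, and the PIM-only genes in PIM for 31.0%. The single-list genes divided further by the H3K27ac and H3K27me3 of their own tissue. Of the 1715, 487 (28.4%) had GAS H3K27ac without H3K27me3, with a median width of 2522 bp, and 667 (38.9%) had H3K27me3 without H3K27ac, with 1457 bp. A further 179 (10.4%) had both marks and 382 (22.3%) neither. In PIM, 322 of 732 (44.0%) had H3K27ac without H3K27me3, with a median of 3994.5 bp, and 166 had H3K27me3 without H3K27ac, with 1951.5 bp, while 61 had both marks and 183 neither. H3K18la was present at 84.6% of the 487 and at 16.2% of the 667, and at 95.7% of the 322 and 21.7% of the 166. Over all members of a list, whatever their class, 29 of 33 sarcomere genes had a GAS H3K27ac peak and 6 a GAS H3K27me3 peak, against 48.8% and 23.7% of all genes. The counts were 18 and 10 of 22 muscle gene regulators, and 2 and 5 of 8 satellite cell genes. In PIM, 23 of 28 macrophage surface genes had an H3K27ac peak and 2 an H3K27me3 peak, against 49.7% of all genes with the former and 5610 of 20807 genes with the latter.

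The promoters of the classes differed in base composition, which the classing did not use. Over 19174 RefSeq promoters of 15687 genes (250 bases before to 50 after the start), the median ratio of observed to expected CpG was 0.79 for genes called in both, 0.53 for GAS only, 0.27 for PIM only and 0.19 for neither. A ratio of at least 0.6 was reached by 77.5%, 41.7%, 17.0% and 8.58% of them. The printed promoters of single-list genes were poor in CpG by this measure, with 0.43 at Acta1, 0.37 at Myog, 0.24 at Cd68 and 0.10 at Fcgr4, as were Ckm (0.23) and Mylpf (0.09), which were called in both.

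The PU.1 motif was frequent at PIM-only promoters. GAGGAAGT, on either strand, was found in 12.1% (9.91 to 14.7%) of 710 PIM-only promoters, 1.80% (1.25 to 2.57%) of 1615 GAS-only promoters, 2.75% of 10698 in both and 3.14% of all. Among the genes called in both it was found in 5.09% of the promoters of genes at least 2 times wider in PIM, 2.46% of those within 2 times and 1.71% of those at least 2 times wider in GAS. The match in Fcgr4 and that in Tlr1 printed above are examples. The AP-1 motif was found in 11.3% of PIM-only, 6.50% of GAS-only and 7.02% of all promoters, and in 11.5% of the promoters of genes called in neither list, close to the PIM-only share. The E-box was found in 22.8% of GAS-only, 19.9% of PIM-only and 15.8% of all promoters, and the MEF2 motif in 5.08%, 3.52% and 3.45%. In 30 promoters of 25 sarcomere genes the E-box was found in 13, the MEF2 motif in 6 and the PU.1 motif in 0. The PU.1 motif was also rare in most macrophage lists, with 1 of 23 surface promoters, 0 of 18 promoters of macrophage factors and 1 of 24 cytokine promoters. It was found in 4 of 21 promoters of pattern recognition genes, 4 of 22 of phagocytosis genes and 7 of 14 of neutrophil genes. The E-box was found in 6 of the 23 surface promoters. The TATA box was found in 10.3% of GAS-only, 13.1% of PIM-only, 6.00% of both and 12.1% of all promoters. CCAAT, chosen as a motif of general promoters, was found in 32.0% of GAS-only, 29.6% of PIM-only and 37.5% of all.

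The same motifs were counted in the 500 bases at the centre of each region, on mm10. At distal regions PU.1 was found in 11.2% (10.5 to 11.9%) of PIM-only, 3.31% (2.94 to 3.73%) of GAS-only and 6.86% of all regions. At promoter regions the shares were 9.07%, 2.97% and 4.07%. AP-1 was found in 27.1% of PIM-only, 15.1% of GAS-only and 20.1% of all distal regions, and in 23.4%, 11.9% and 11.8% of the promoter regions. The E-box shares lay closer together, at 26.2% of PIM-only, 28.3% of GAS-only and 27.5% of all distal regions, and MEF2 was found in 7.47%, 9.54% and 8.51%. A match is a run of letters and not a bound site, and the classes also differ in base composition, whose part in these shares was not tested. The MEF2 pattern is loose and also counts sequences that are not MEF2 sites.

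**Figure D5:**
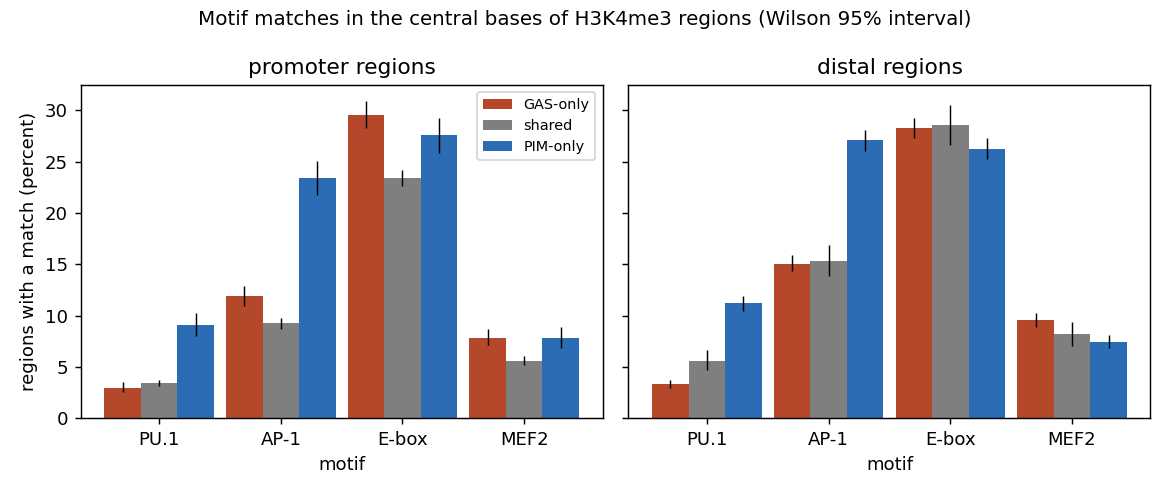
Share of GAS-only, shared and PIM-only regions (bars, percent) with a match to each motif in the central 500 bases, for promoter regions and distal regions, with 95% Wilson intervals as lines. The PU.1 motif is found in 11.2% of PIM-only and 3.31% of GAS-only distal regions, and in 9.07% and 2.97% of the promoter regions.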

How the data were processed

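H3K4me3 was measured by CUT&Tag in nuclei of GAS and PIM, with 2 replicates per group. Per the submitters' processing notes, reads were handled with FastQC 0.11.0, Trim Galore 0.6.6, Bowtie2 2.4.4, SAMtools 1.13, bedtools 2.30 and SEACR 1.3 on mm10. The authors pooled replicates before SEACR called peaks. Each deposited list gives, per peak, the position, the total signal (summed coverage in fragments) and the maximum signal. This signal was not scaled for depth, and the sequencing depth per sample was not analysed here. Pooling hides the spread between replicates, and a more deeply covered library can yield more and wider peaks.

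Peaks on chromosomes 1 to 19 were merged where they overlapped by at least 1 bp. Promoters were windows of 2000 bp on each side of every GENCODE M21 transcript start. A gene was called in a list if a peak reached such a window of the gene. Groups came from the sample labels. No test was made, since each group has 1 list. Shares carry 95% Wilson intervals and medians 95% order-statistic intervals, and regions and genes are not replicates. The members and the 27 gene lists were chosen with earlier results of these data known. Per list, up to 5 genes with the widest peak in the list's own tissue and members whose class went against their list were named. Outside the lists, the 10 widest genes called in 1 list alone, the 8 largest width ratios each way and the 5 strongest distal regions each way were named. Other genes named were chosen after their values were seen. Motifs and CpG were counted in RefSeq promoters (GRCm38.p6) and in the central 500 bases of regions. Listed genes whose symbol had no match in the annotation used were not analysed here, and some named by the rule are not reported here.

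Python 3.11.15, pandas 2.3.3, NumPy 2.4.6, SciPy 1.17.1, matplotlib 3.10.9 and bedtools 2.31.1 were used. The functions were checked on simulated peak lists and against bedtools.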

Additional observations from a re-analysis of the deposited data

How the results depend on the processing

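Of the 9 alternatives to each result, 8 were planned and 1, that the TSS base itself lie in the peak, was chosen after seeing the data. The median width ratio stayed above 0 in every alternative. The share of promoter regions called in both lists (63.0%) was 61.3% with an overlap of 50% of the shorter peak, 67.5% with a promoter window of 1000 bp, 72.0% with protein-coding starts only, 43.8%, no longer a majority, with the 5000 peaks of largest signal per list, 64.3% with equal numbers of peaks, 59.7% with equal covered bases, 64.2% with peaks under 500 bp apart joined and 73.3% with the TSS base in the peak. The distal share (12.3%) was 14.7% with protein-coding starts, 23.2% with 5000 peaks, 12.9% with equal numbers, 10.5% with equal bases and 14.5% with the TSS base in the peak. The median log2 width ratio (0.25) was 0.28 with 5000 peaks and 0.27 with equal bases. With 5000 peaks, 3565 genes were called in both lists (11794 in the full lists) and 1740 in PIM only (732). With equal bases, 2590 genes were called in GAS only (1715). The causes were not tested, except that 5000 peaks are fewer by construction. Over all settings, sarcomere genes called in GAS only numbered 17 to 22 and in PIM only 0, and macrophage surface genes called in PIM only numbered 19 to 23. Other lists moved more. Genes called in GAS only numbered 0 to 6 of the satellite cell list, 4 to 10 of the endothelial, 2 to 15 of the fibroblast, 2 to 10 of the smooth muscle, 1 to 7 of the hypoxia and 9 to 18 of the Hox list. Genes called in PIM only numbered 2 to 7 of the macrophage factors, 7 to 13 of pattern recognition, 8 to 15 of cytokines, 8 to 15 of phagocytosis, 2 to 8 of MHC class II, 1 to 8 of the interferon response and 1 to 7 of the neutrophil list. Leaving out a replicate could not be run, since the lists pool the replicates. No paired analysis was possible because the authors pooled the replicates and no result comes from a test. The lowest maximum of a called peak was 8 fragments in GAS and 15 in PIM, and a region without a peak in a given list is one not called at that list's depth and is not shown to lack the mark.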
